A study of Mus musculus with 61 samples.

Results

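Muscle troponin is made from slow and fast isoforms of 3 subunits, and their 6 genes were taken by symbol from the 55011 genes of an RNA-seq count table of whole mouse muscle. The slow genes are Tnni1 (troponin I), Tnnt1 (troponin T) and Tnnc1 (troponin C), and the fast genes are Tnni2, Tnnt3 and Tnnc2 in the same order of subunits. All 6 were present and all 6 passed the low-count filter in every comparison. The table covered 61 libraries in 22 groups, from a study of how regulatory T cells and interferon gamma bear on the response of muscle to exercise.

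Troponin sits on the actin filament and acts as the calcium switch of contraction. Troponin C binds the calcium, troponin I keeps actin and myosin apart at rest, and troponin T anchors the complex to tropomyosin. Slow-twitch and fast-twitch fibres build this complex from different genes, so the ratio of slow to fast troponin mRNA is a common readout of fibre type, and Tnnc1 is also the troponin C of the heart.

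Wild-type C57BL/6J mice were taken on day 1, day 2 or day 7 of recovery from an acute bout of exercise or were sedentary, and quadriceps and tibialis anterior of the same animals were sequenced, with 3 libraries per muscle and condition. In the acute depletion experiment, quadriceps came from Foxp3DTR+ mice, which carry the human diphtheria toxin receptor in a Foxp3-IRES-GFP.hDTR allele, and from Foxp3DTR- mice. Both genotypes received diphtheria toxin, and there were 2 DTR+ and 3 DTR- sedentary libraries, 3 and 3 on day 1, and 2 and 2 on day 7 after exercise. The training experiment held DTR+ and DTR- quadriceps, again all with toxin, from mice trained for 2 weeks or sedentary, with 3 libraries per group. Trained DTR+ mice with toxin received anti-IFN-gamma or control IgG every other day for 1 week, with 3 quadriceps libraries each. Sedentary C57BL/6JN mice of 24 months received anti-IFN-gamma or IgG, with 2 libraries each, and their labels do not name the muscle. Because the receptor is expressed from the Foxp3 locus, the toxin acts on Foxp3-expressing cells of the whole animal and not of muscle alone, and the age of the other mice was not given.

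On the mouse GRCm38 build, Tnni1 (ENSMUSG00000026418.16) lies on the plus strand at chr1:135779434-135810989, Tnnt1 (ENSMUSG00000064179.13) on the minus strand at chr7:4504570-4516382, and Tnnc1 (ENSMUSG00000091898.8) on the plus strand at chr14:31208312-31211729. Of the fast genes, Tnni2 (ENSMUSG00000031097.15) lies on the plus strand at chr7:142441808-142444410, Tnnt3 (ENSMUSG00000061723.18) on the plus strand at chr7:142498836-142516009, and Tnnc2 (ENSMUSG00000017300.9) on the minus strand at chr2:164777161-164779967. Tnni2 and Tnnt3 are thus close neighbours on chromosome 7, with Tnnt3 downstream of Tnni2 on the same strand. Exons of Tnnc2 overlap exons of Ube2c on the opposite strand. Since the strand setting of the counting was not given, reads of the pair may be mixed or left uncounted. Ube2c itself held 2828 counts over all 61 libraries together. That total does not show whether reads of the shared exons were counted for Tnnc2. Tnnc1 and Tnnt3 overlap introns of Nisch and Prr33 on the opposite strand, with no shared exon sequence.

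Slow members rose and fell together from one wild-type quadriceps to the next. The 250 bases before a listed RefSeq start of each are therefore shown, beside those of the fast gene Tnnc2. These are the 4 members with an entry among the RefSeq promoters of GRCm38.p6. Capitals mark matches on either strand to an E-box (CANNTG, the site of the myogenic MyoD family), a MEF2-like run (TATTTTTA), an MCAT box (CATTCC, the site of TEAD factors) or a TATA box (TATAAA). Tnni1 has 2 listed starts, and the first is printed.
Tnni1: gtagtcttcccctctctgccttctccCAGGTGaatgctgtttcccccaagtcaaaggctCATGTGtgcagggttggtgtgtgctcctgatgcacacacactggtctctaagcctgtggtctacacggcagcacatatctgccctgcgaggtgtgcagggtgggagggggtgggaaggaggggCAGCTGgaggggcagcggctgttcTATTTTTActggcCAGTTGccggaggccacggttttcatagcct
Tnnt1: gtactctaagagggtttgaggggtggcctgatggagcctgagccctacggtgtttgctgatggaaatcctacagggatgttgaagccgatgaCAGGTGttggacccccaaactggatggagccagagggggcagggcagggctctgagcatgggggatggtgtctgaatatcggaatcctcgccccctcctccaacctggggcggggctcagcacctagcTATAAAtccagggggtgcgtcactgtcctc
Tnnc1: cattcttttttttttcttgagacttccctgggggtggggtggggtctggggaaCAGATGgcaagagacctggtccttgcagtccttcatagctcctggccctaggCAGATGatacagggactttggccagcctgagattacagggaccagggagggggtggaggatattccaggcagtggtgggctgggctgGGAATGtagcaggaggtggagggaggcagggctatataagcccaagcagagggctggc
Tnnc2: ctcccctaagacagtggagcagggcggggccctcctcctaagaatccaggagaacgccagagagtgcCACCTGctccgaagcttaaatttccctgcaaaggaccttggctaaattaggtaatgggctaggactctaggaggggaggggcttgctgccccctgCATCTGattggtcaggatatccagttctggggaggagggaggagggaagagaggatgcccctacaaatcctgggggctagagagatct

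The windows lie at chr1:135799171-135799420 for Tnni1, chr7:4515976-4516225 for Tnnt1, chr14:31208062-31208311 for Tnnc1 and chr2:164779735-164779984 for Tnnc2, and each is printed on the strand of its gene. These starts are not the outer ends of the gene spans given above. The Tnni1 and Tnnt1 windows lie wholly and the Tnnc2 window mostly within the span of their gene. The Tnnc1 window ends at the base before its span. The Tnni1 window held 4 E-boxes and the MEF2-like run, which began 44 bases before the listed start. The Tnnt1 window held 1 E-box and a TATA box 30 bases before the start, the Tnnc1 window 2 E-boxes and an MCAT box on the opposite strand, and the Tnnc2 window 2 E-boxes. Among 32851 promoters of the same length, 66.2% held an E-box, 2.45% the MEF2-like run, 12.6% the MCAT box and 12.4% the TATA box. These matches describe letters only. Tnni2 and Tnnt3 are named without a promoter.

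Library totals ran from 3359683 to 14445336 counts. Counts of Foxp3 were too few for a firm check of the depletion, at 0 in 41 of the 61 libraries and 9 at the highest. In the acute experiment DTR+ libraries held 2 counts in all (in 1 of 7 libraries), against 25 in DTR- libraries (in 5 of 8). Among training libraries, 1 of the 6 DTR+ ones had any (2 counts), against 2 of the 6 DTR- ones (4 counts). Skeletal fibre markers were high in every library. The heart troponin I gene Tnni3 had 0 counts in 36 of 61 libraries and never exceeded 1.61 CPM (counts scaled by the library total), and heart troponin T, Tnnt2, lay between 0.791 and 9.47 CPM. The summed level of 6 heart markers lay between 0.124 and 10.2 CPM. Some libraries stood apart from the rest of their experiment in the fast troponin genes, and results of the fits and balances that rest on single ones are given with and without them.

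The muscle of origin set the largest difference in the slow genes, asked here in animals that gave both muscles. In sedentary quadriceps, Tnni1 was at 54.6, 82.0 and 37.6 CPM, against 1.54, 5.44 and 2.31 CPM in tibialis anterior. Tnnt1 was at 66.3, 93.1 and 42.9 CPM in quadriceps, against 4.22, 4.78 and 9.53 CPM in tibialis anterior. Tnnc1 was at 96.7, 105 and 64.2 CPM in quadriceps, against 4.35, 4.94 and 3.54 CPM in tibialis anterior. All 3 slow genes were separated without overlap. Among these 3 animals, the one highest in quadriceps was also highest in tibialis anterior for Tnni1 and Tnnc1, but not for Tnnt1.

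All 3 slow genes were higher in sedentary quadriceps. Tnnc1 was 20.6-fold higher (log2 4.36 ± 0.26 SE, adjusted p = 5.02e-11 by edgeR's quasi-likelihood test with Benjamini-Hochberg adjustment over all genes), Tnni1 19.2-fold higher (4.26 ± 0.40, edgeR adjusted p = 1.74e-07) and Tnnt1 10.9-fold higher (3.44 ± 0.31, edgeR adjusted p = 7.27e-08). Of all 13819 genes tested, 1.3% passed, and 0.586% were higher in quadriceps. The fast genes were close between the muscles at log2 0.16 for Tnni2, 0.18 for Tnnt3 and 0.19 for Tnnc2, with edgeR adjusted p of 0.169, 0.0861 and 0.277 although none of their quadriceps values fell within the tibialis anterior range, as for 16.6% of all genes. With the animal as a block, 4 members passed in place of 3, and the share of all genes called with that block is not given here. In bulk muscle, fewer fibres of a type and less RNA per fibre cannot be told apart.

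Averaged over the 4 conditions, with 12 libraries per muscle, all 6 members were higher in quadriceps, against 10.2% of all genes called. Tnni1 averaged 60.9 ± 29.5 CPM in quadriceps and 4.23 ± 1.91 CPM in tibialis anterior (SD, n = 12 each), Tnnt1 59.0 ± 23.0 and 4.84 ± 1.91 CPM, and Tnnc1 71.6 ± 21.9 and 4.40 ± 1.03 CPM in the same order. The fast genes differed by far less. Tnni2 averaged 7941 ± 333 CPM in quadriceps and 7209 ± 257 CPM in tibialis anterior, a log2 difference of 0.12 ± 0.03 SE (edgeR adjusted p = 0.00241), Tnnt3 differed by 0.12 ± 0.03 (edgeR adjusted p = 0.00218), and Tnnc2 by 0.135 ± 0.035 (edgeR adjusted p = 0.0115). Ranges of the slow genes did not overlap over the 12 libraries of each muscle, while those of the fast genes did, and 0.774% of all genes did not overlap.

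**Figure D1:**
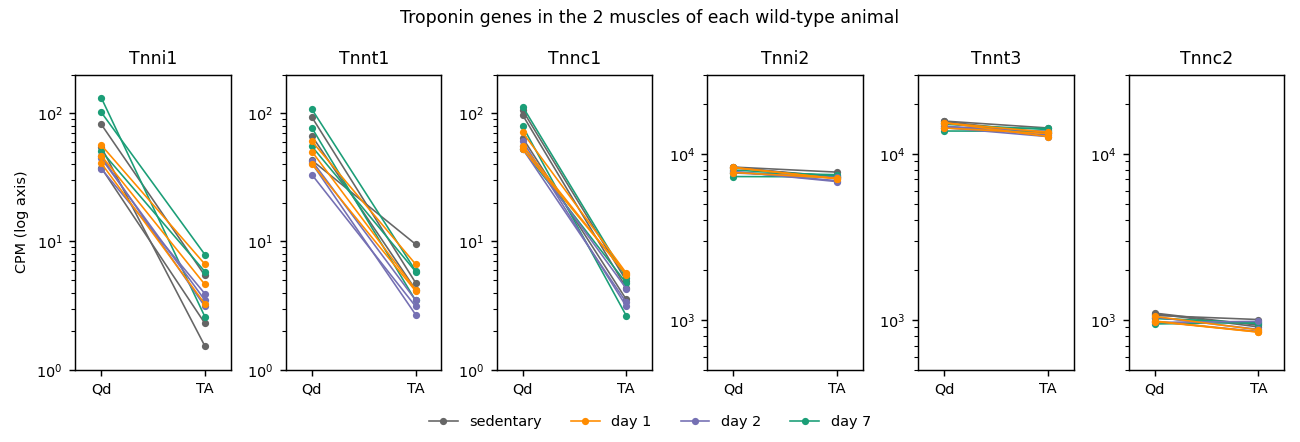
CPM of the 6 troponin genes in wild-type quadriceps and tibialis anterior on a log axis, with a line joining the 2 muscles of each animal, coloured by condition. Slow genes stand at 33.2 to 132 CPM in quadriceps and at 1.54 to 9.53 CPM in tibialis anterior, while the fast genes lie at nearly the same height in both muscles.

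Per kilobase of exon, the slow genes were a small part of the total in both muscles. The slow share of all troponin CPM per kilobase had a median of 0.552% in quadriceps (lowest 0.517%, highest 1.24%), against 0.0547% in tibialis anterior (lowest 0.0361%, highest 0.0720%). The subunits were not alike: the slow share was highest for troponin C, at a median of 4.53% in quadriceps and 0.383% in tibialis anterior. It was 0.257% and 0.0225% for troponin I, and 0.248% and 0.0233% for troponin T, in the same order. On the CPM per kilobase scale, the medians in quadriceps were 60.03 for Tnnc1, 23.9 for Tnnt1 and 13.6 for Tnni1, and 1277 for Tnnc2, 9377 for Tnnt3 and 5277 for Tnni2. The fast troponin C gene was therefore the lowest of the fast genes per length and the slow troponin C gene the highest of the slow ones. If reads of the exons shared with Ube2c were left uncounted, the Tnnc2 level is too low and the troponin C share too high.

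A single slow-to-fast balance was formed per library as the mean over the 3 subunits of the log2 ratio of slow to fast counts, each with 0.5 added. It needs no scaling between libraries. The balance averaged -6.36 ± 0.48 in quadriceps and -10.02 ± 0.32 in tibialis anterior (SD, n = 12 each), a difference of 3.66 or 12.6-fold (permutation within condition, two-sided p = 1.25e-05, the smallest it can give; 0.000113 adjusted over 9 balance tests). It was higher in quadriceps in 12 of 12 animals, by 3.06 to 4.69, and by 3.86, 3.15, 3.57 and 4.06 in sedentary, day 1, day 2 and day 7 mice. Between the quadriceps and the tibialis anterior of the same animal, the balance had a Pearson r of 0.135 over 12 animals (permutation p = 0.676; Spearman rho = 0.294, permutation p = 0.355; r = 0.0557 without the 2 animals farthest from the median).

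Of other genes that mark fibre type, 10 slow fibre genes were tested between the sedentary muscles, and 5 were higher in quadriceps: the slow myosin heavy chain Myh7 (log2 5.34), the light chains Myl2 (3.39) and Myl3 (1.33), the slow calcium pump Atp2a2 (2.72) and the slow tropomyosin Tpm3 (2.12). Mybpc1, a slow myosin-binding protein, was lower (-1.03). The list's median was 0.92, beside 0.01 over all genes. Of 12 fast fibre genes, Actn3 (0.27) and Myoz1 (0.25) were higher and the IIx myosin Myh1 was lower (-1.24), with a median of 0.15. Of 11 other thin-filament genes Tpm3 and Actc1 (1.47) were higher and Tpm2 (-0.34) lower. None of 15 fibre-type regulators passed, and neither did the heart gene Tnnt2. Tpm3 is on both the slow fibre and the thin-filament list.

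Acute exercise in wild-type mice was followed at 3 recovery times in each muscle. In quadriceps Tnni1 was at 54.6, 82.0 and 37.6 CPM in sedentary mice, 40.8, 46.8 and 56.5 CPM on day 1, 46.1, 37.0 and 44.5 CPM on day 2, and 50.9, 102 and 132 CPM on day 7. Tnnc1 was at 52.5, 55.9 and 70.8 CPM on day 1, 60.8, 55.8 and 52.7 CPM on day 2, and 52.5, 79.0 and 113 CPM on day 7, beside the sedentary values given above. Day 7 was wide, with 1 library at the level of the earlier days and 2 above it.

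No troponin gene passed in any of the 6 comparisons of exercised with sedentary muscle. All genes called made up 0.582%, 0.299% and 0.214% in quadriceps on days 1, 2 and 7, and 0.0552%, 0.063% and 0.0158% in tibialis anterior. At an unadjusted p under 0.05, 1, 2 and 1 members passed in quadriceps and 0, 1 and 0 in tibialis anterior, and DESeq2 called 0 in all 6. No share of all genes was computed at the unadjusted threshold. By CPM, 1 member in quadriceps on day 1 (Tnnc2), 5 on day 2 (all but Tnni1) and 3 on day 7 (the fast genes) were lower than in sedentary mice with no overlap, against 14.5%, 14.4% and 14.7% of all genes in either direction. In tibialis anterior 3 members on day 1 (2 of them lower), 1 on day 2 (Tnnt1, lower) and 0 on day 7 did not overlap, against 14.3%, 13.7% and 12.7% of all genes. In quadriceps the estimates farthest from 0 were those of Tnnt1 on day 2 (log2 -0.78 ± 0.25 SE, edgeR adjusted p = 0.279) and Tnni1 on day 7 (0.73 ± 0.27, edgeR adjusted p = 0.457), the second with 95.0 ± 41.2 CPM on day 7 and 58.1 ± 22.4 CPM in sedentary mice (SD, n = 3 each). No member's response passed as different between the muscles by an interaction contrast on day 1, day 2 or day 7, where 0.0434%, 0.00724% and 0.0796% of all genes did (1, 0 and 1 members at an unadjusted p under 0.05, and 0 by DESeq2). By balance, exercised minus sedentary was -0.14 in quadriceps (exact permutation, two-sided p = 0.682) and 0.13 in tibialis anterior (exact permutation, two-sided p = 0.577). In tibialis anterior the slow genes stayed between 1.54 and 9.53 CPM in all 12 libraries, so that changes in them rest on few counts, and the estimate farthest from 0 there was that of Tnnt1 on day 2 (log2 -0.96 ± 0.41 SE, edgeR adjusted p = 0.599).

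In the acute depletion experiment, the fast genes split the libraries before any comparison of genotype. The count ratio of Tnnt3 to Tnni2, both fast genes of the same fibres, was 1.79 to 1.91 in wild-type mice of either muscle and 1.81 to 1.92 in the trained antibody mice. It was 3.84 to 5.28 in the sedentary and day 7 libraries of the acute experiment except for DTR- day 7 replicate 1 at 1.86, and 2.02 to 2.88 in its day 1 libraries. Training libraries lay at 1.98 to 2.23 except for DTR+ sedentary replicate 2 at 3.42, and the aged libraries at 4.35 and 5.35 with anti-IFN-gamma and 2.08 and 3.79 with IgG. The ratio of Tnnc2 to Tnni2 split the same libraries, at 0.274 to 0.378 in acute sedentary and day 7 libraries other than that replicate (0.108), and 0.112 to 0.187 on day 1.

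The share of mitochondrial transcripts moved with the acute groups too. It was 21.4% to 23.5% in sedentary DTR+ and 7.89% to 11.996% in sedentary DTR- libraries, 20.005% to 21.8% in DTR+ and 8.70% to 8.92% in DTR- libraries on day 7, and 5.44% to 6.56% on day 1 over both genotypes. The number of genes detected ranged from 14701 to 26596, and the summed CPM of 6 skeletal fibre markers was 101362 to 112460 in sedentary DTR+ against 143461 to 147099 in sedentary DTR- libraries. The part of these shifts in the troponin results was not tested. Fold changes in this experiment also depend on scaling. The fitted folds use TMM factors, and with library totals in place of TMM (chosen after seeing the data) the median of all genes moved to log2 -0.36 for sedentary DTR+ against DTR-, -0.39 for day 7 DTR+ against DTR-, 0.34 for DTR- day 1 against sedentary and 0.81 for DTR+ day 1 against sedentary. The share of called genes that were higher was then 22.2%, 25.3%, 81.4% and 79.3%, in place of 45.5%, 44.7%, 49.8% and 57.3%.

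**Figure D2:**
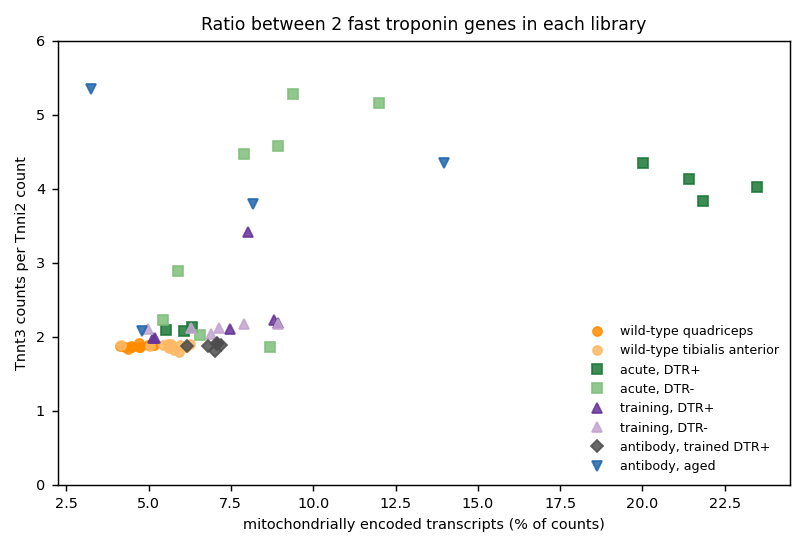
Count ratio of the fast genes Tnnt3 and Tnni2 in every library, plotted against the mitochondrial share of counts in percent, with symbols by experiment. The sedentary and day 7 libraries of the acute experiment have ratios of 3.84 to 5.28, except for DTR- day 7 replicate 1, which lies in the wild-type range. All wild-type libraries lie at 1.79 to 1.91, 1 training library lies at 3.42, and the highest point is an aged library.

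In sedentary mice of the acute experiment, 4 members were higher in DTR+ than in DTR- muscle, against 26.7% of all genes called. Tnnc2 was at 2233 and 2086 CPM in DTR+ and at 1779, 1693 and 1520 CPM in DTR- libraries. Tnni2 was at 6612 and 6494 CPM in DTR+ and at 4967, 4485 and 4986 CPM in DTR- libraries. Tnnt1 was at 35.9 and 42.1 CPM in DTR+ and at 25.1, 20.7 and 29.5 CPM in DTR- libraries. The groups did not overlap in these 3 genes or in Tnnt3, nor in Tnnc1, which had the lower CPM in DTR+ libraries, as for 49.7% of all genes.

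Scaled by TMM, Tnnc2 was higher by log2 0.68 ± 0.15 SE (edgeR adjusted p = 0.0016), Tnnt3 by 0.47 ± 0.11 (edgeR adjusted p = 0.00441), Tnni2 by 0.75 ± 0.20 (edgeR adjusted p = 0.00784) and Tnnt1 by 0.95 ± 0.26 (edgeR adjusted p = 0.00924). Tnni1 was at 0.43 (edgeR adjusted p = 0.104) and Tnnc1 at -0.01 (edgeR adjusted p = 0.988). With library totals only Tnnc2 passed (0.38, edgeR adjusted p = 0.0323), and the edgeR adjusted p was 0.0813 for Tnnt1, 0.113 for Tnni2 and 0.209 for Tnnt3. Without DTR+ replicate 2, Tnni2 and Tnnt3 missed the threshold (edgeR adjusted p = 0.0576 and 0.0527), and without DTR+ replicate 3 Tnnt1 did (edgeR adjusted p = 0.079).

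On day 1 after exercise no troponin gene passed between the genotypes, and neither did any of the 14245 genes tested (0% called). Tnnt1 was at 50.1, 45.1 and 55.2 CPM in DTR+ libraries and at 32.0, 47.4 and 56.7 CPM in DTR- libraries. Tnnc2 was at 923, 883 and 996 CPM in DTR+ libraries and at 1109, 1040 and 928 CPM in DTR- libraries. Estimates of the 6 members lay between log2 -0.11 and 0.19, all with an edgeR adjusted p of 1, and 0 members had an unadjusted p under 0.05 or were called by DESeq2.

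On day 7, 3 members were higher in DTR+ libraries, against 25.3% of all genes called. Tnnc2 was at 2021 and 1934 CPM in DTR+ libraries, and 1148 and 1493 CPM in DTR- libraries. Tnnt3 was at 26786 and 27101 CPM in DTR+ libraries, and 19731 and 22276 CPM in DTR- libraries. Tnni1 was at 118 and 87.5 CPM in DTR+ libraries, and 87.2 and 65.6 CPM in DTR- libraries. The Tnni1 ranges almost touch, while Tnnc2 and Tnnt3 are well apart, and 59.3% of all genes did not overlap.

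Tnnc2 was higher by log2 0.87 ± 0.16 SE (edgeR adjusted p = 0.000547), Tnnt3 by 0.64 ± 0.13 (edgeR adjusted p = 0.000793) and Tnni1 by 0.72 ± 0.21 (edgeR adjusted p = 0.0153). Tnnc1 stood at 0.55, Tnnt1 at 0.10 and Tnni2 at 0.07, with edgeR adjusted p of 0.132, 0.845 and 0.866. With library totals Tnni1 missed the threshold (0.43, edgeR adjusted p = 0.149), as it did without DTR+ replicate 2 or DTR- replicate 3 (edgeR adjusted p = 0.191 and 0.162). Without DTR- replicate 1, the library with a Tnnt3 to Tnni2 ratio of 1.86, Tnni1 was at 0.90, Tnnt3 at 0.53 and Tnnc2 at 0.66 (edgeR adjusted p = 0.0205, 0.0116 and 0.0154). With a replicate block and length and GC trends removed none of the 3 passed, with Tnnc2 at 0.49, Tnnt3 at 0.38 and Tnni1 at 0.64 (edgeR adjusted p = 0.0942, 0.0637 and 0.0829). The summed CPM of 5 T and NK cell markers was 18.9 to 48.1 in DTR+ and 3.90 to 6.59 in DTR- libraries on day 7, and their part in the result was not tested. Of these markers Cd3d, Lck, Nkg7 and Gzmb were at 0 in 40, 24, 25 and 45 of the 61 libraries.

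Against their own sedentary mice, day 1 libraries had less of 2 fast genes in both genotypes. In DTR- mice, Tnnt3 averaged 17262 ± 1104 CPM on day 1 and 23864 ± 1656 CPM in sedentary mice, and fell by 0.72 ± 0.10 on the log2 scale (edgeR adjusted p = 0.000155). Tnnc2 averaged 1025 ± 91.5 CPM on day 1 and 1664 ± 132 CPM in sedentary mice, and fell by 0.95 ± 0.13 (edgeR adjusted p = 0.000129; SD, n = 3 each). The third fast gene, Tnni2, had the higher CPM on day 1, at 5941, 8281 and 8055 against 4967, 4485 and 4986 in sedentary mice, but did not pass (log2 0.37, edgeR adjusted p = 0.18). Of all genes, 16.4% were called in this comparison.

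In DTR+ mice on day 1 Tnnt3 fell by 1.16 ± 0.11 (edgeR adjusted p = 8.34e-08), Tnnc2 by 1.74 ± 0.15 (edgeR adjusted p = 1.25e-08) and Tnni1 by 0.52 ± 0.19 (edgeR adjusted p = 0.0333), with 42.4% of all genes called. The median of all genes was log2 0.28. Tnni1 overlapped in CPM between the 2 groups, at 59.6, 70.9 and 58.9 on day 1 and 56.8 and 67.8 in sedentary mice, and with library totals its change was log2 0.018 (edgeR adjusted p = 0.951), so its fall rests on the scaling. It also lost the threshold without either sedentary library (edgeR adjusted p = 0.0504 and 0.208) or without day 1 replicate 1 or 3 (edgeR adjusted p = 0.0904 and 0.0795). Tnnt3 and Tnnc2 stayed lower under library totals, by 0.63 and 1.21. Without either sedentary library Tnnt3 was at -1.16 and -1.18 and Tnnc2 at -1.68 and -1.82, and with 1 sedentary DTR- library left out Tnnt3 was at -0.80 to -0.64 and Tnnc2 at -1.05 to -0.88 in DTR- mice. Tnnt3 and Tnnc2 passed in each of these fits, but every acute sedentary library has a high Tnnt3 to Tnni2 ratio, so no value without all of them exists. On day 7 no member passed against sedentary mice of its genotype, with 0.00702% of all genes called in DTR- and 1.01% in DTR+ mice. At an unadjusted p under 0.05 there were 4 members in DTR- and 1 in DTR+ mice, and DESeq2 called 1 and 0 in the same order. The shares of all genes just given are at the adjusted threshold. None was computed at the unadjusted one, so the count of 4 members cannot be set against all genes.

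The difference between the day 1 responses, DTR+ minus DTR-, passed for Tnnc2 alone of the 6, at log2 -0.79 ± 0.20 SE (interaction contrast, edgeR adjusted p = 0.00921, 15.4% of all genes called). Tnnt3 stood at -0.44 (edgeR adjusted p = 0.0573), Tnnt1 at -0.76 (0.146), Tnni2 at -0.57 (0.165), Tnni1 at -0.30 (0.473) and Tnnc1 at 0.18 (0.764), all adjusted p by edgeR. With length and GC trends removed Tnnc2 stood at -0.37 (edgeR adjusted p = 0.282). The Tnnc2 call was also lost without DTR+ sedentary replicate 2 (-0.71, edgeR adjusted p = 0.0628). With library totals the median of all genes moved to 0.37, 79.1% of called genes were higher in place of 57.3%, and Tnnc2 stood at -0.51 (edgeR adjusted p = 0.0448). No member passed for the day 7 response (0.0772% of all genes called at the adjusted threshold). At an unadjusted p under 0.05, where no share of all genes was computed, there were 2 members, and DESeq2 called 0.

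The balance in the acute experiment depended on the subunit. Exercised minus sedentary was 0.52 (-6.42 ± 0.21, n = 10, against -6.93 ± 0.20, n = 5; exact permutation within genotype, two-sided p = 0.0017, 0.00765 adjusted over 9), at 0.63 in DTR+ and 0.42 in DTR- mice. For troponin I alone it was -0.16 (exact permutation p = 0.572). On day 1 against sedentary the DTR+ differences were -0.31 for troponin I, 0.99 for T and 1.41 for C, and those of DTR- mice -0.57, 1.29 and 0.41. On day 7 against sedentary they were 0.70, 0.31 and 0.58 in DTR+ mice and -0.16, 1.27 and 0.33 in DTR- mice. No slow gene was called higher in these 4 comparisons. DTR+ minus DTR- was -0.05 as the mean of the 3 within-time differences (exact permutation, two-sided p = 0.686).

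Other fibre genes in the acute experiment moved both ways. In sedentary DTR+ against DTR- muscle, 4 of 11 other thin-filament genes were higher and 1 lower, 2 of 11 slow fibre genes were higher (Tpm3 at log2 0.68 and Myoz2 at 0.49), and of 12 fast fibre genes 5 were higher and 4 lower. Among the fast ones Myl1 (0.87), Myh4 (0.81) and Myh1 (0.76) were higher, and the myosin kinase Mylk2 (-2.73), the fast calcium pump Atp2a1 (-2.39) and Mybpc2 (-1.24) lower. On day 1 none of these lists had a gene called by genotype.

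**Figure D3:**
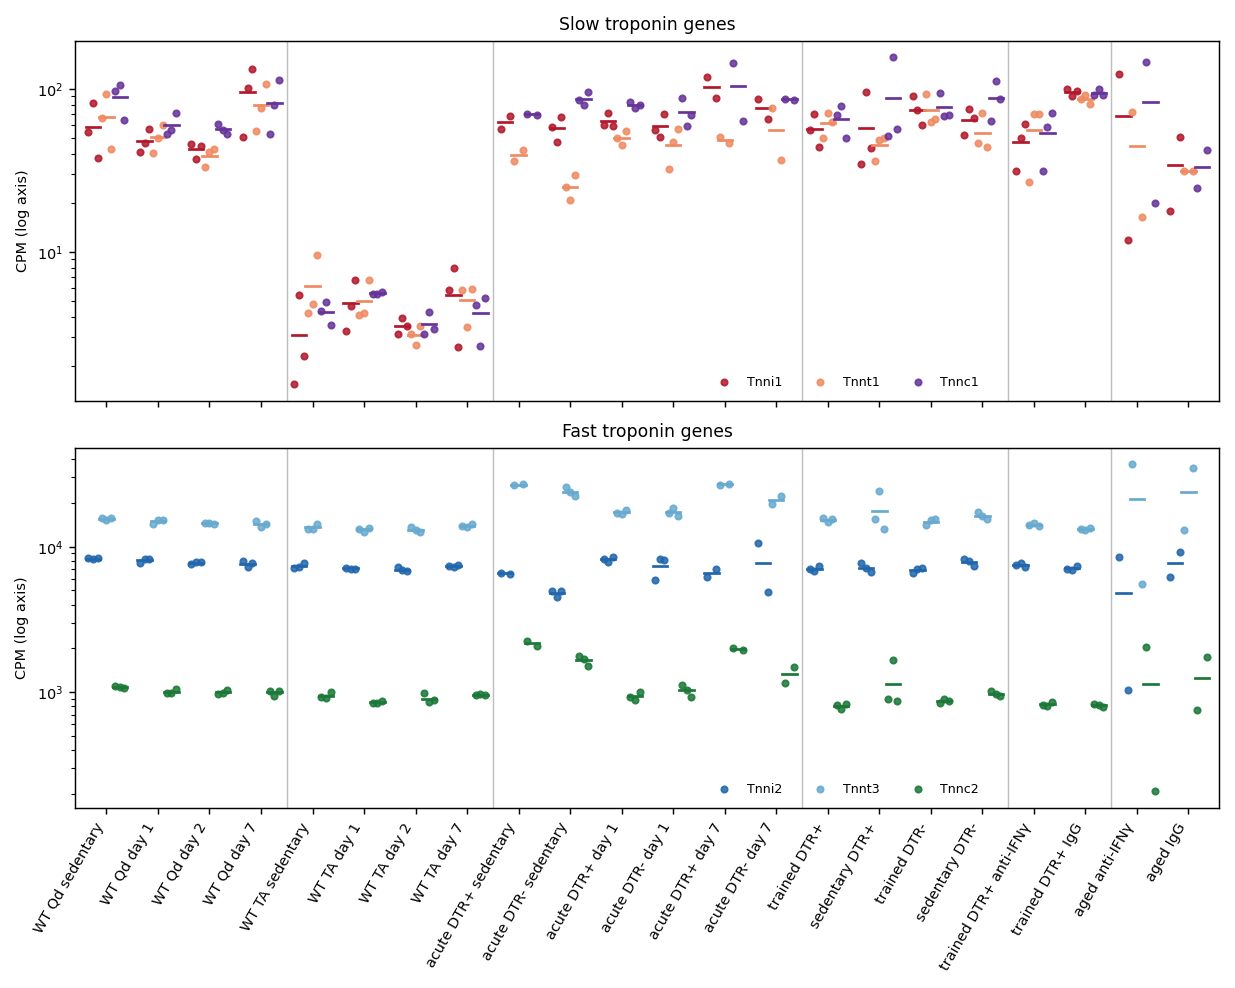
CPM of the 6 troponin genes on a log axis in all 22 groups, slow genes in the upper and fast genes in the lower panel, 1 point per library with bars at group means. Tnnt3 and Tnnc2 are high in the sedentary and day 7 acute groups, and the 3 slow genes of trained DTR+ mice are lower with anti-IFN-gamma than with IgG.

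Training for 2 weeks was set against sedentary mice of each genotype. In DTR+ mice Tnnt1 was at 49.8, 71.4 and 62.9 CPM after training and 36.2, 48.5 and 50.005 CPM in sedentary mice. In DTR- mice it was at 93.2, 63.0 and 65.2 CPM after training and 46.2, 70.9 and 44.2 CPM in sedentary mice. Tnni1 was at 55.8, 70.2 and 44.0 CPM in trained and 34.7, 95.1 and 43.2 CPM in sedentary DTR+ mice. These groups overlapped. The 3 fast genes had lower CPM in trained than in sedentary DTR- mice with no overlap, as 15.7% of all genes did not overlap in either direction. Tnnc2 alone was lower without overlap in trained than in sedentary DTR+ mice (15.7% of all genes) and in trained DTR+ than in trained DTR- mice (15.3%).

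No member passed in any of the 5 training comparisons, where estimates lay between log2 -0.59 and 0.40, 1 member (Tnnc2 in trained DTR+ mice) had an unadjusted p under 0.05 and DESeq2 called 0. All genes called were 2.21% for trained against sedentary DTR+ mice, 0.103% for DTR- mice, 0.89% for DTR+ against DTR- after training, 0.0477% for sedentary mice and 0.27% for the difference in response. Farthest from 0 was Tnnc2 in trained DTR+ mice (-0.59 ± 0.23 SE, edgeR adjusted p = 0.226), with 815, 762 and 829 CPM against 897, 1653 and 869 CPM in sedentary mice, where replicate 2 is the library with a Tnnt3 to Tnni2 ratio of 3.42. Without it Tnnc2 was at -0.09 (edgeR adjusted p = 0.702). Trained minus sedentary balance was 0.32 (exact permutation, two-sided p = 0.13; 0.30 in DTR+ and 0.33 in DTR- mice), and 0.39 without that library (exact permutation p = 0.095). The troponin T pair alone gave 0.60 (exact permutation p = 0.03, not adjusted). DTR+ minus DTR- balance was -0.27 (exact permutation, two-sided p = 0.185; -0.29 after training and -0.26 in sedentary mice). Among the fibre genes, Myh1 was higher after training in both genotypes (log2 1.36 in DTR+ and 1.29 in DTR- mice), and in DTR+ mice Myh2 (1.66), Casq2 (1.47) and Mybpc1 (1.10) were higher and Myh4 (-0.80) lower.

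Of the slow genes, only Tnni1 was called lower with anti-IFN-gamma in trained DTR+ mice. Tnni1 was at 31.4, 49.6 and 60.5 CPM with anti-IFN-gamma and at 100, 90.3 and 97.4 CPM with IgG. Tnnt1 was at 26.9, 70.4 and 70.5 CPM with anti-IFN-gamma and at 86.2, 92.1 and 80.6 CPM with IgG. Tnnc1 was at 31.1, 58.5 and 71.1 CPM with anti-IFN-gamma and at 91.2, 99.5 and 91.4 CPM with IgG. The groups did not overlap in any slow gene, and the spread was much wider with anti-IFN-gamma, whose replicate 1 was lowest in all 3.

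Only Tnni1 passed, against 1.35% of all genes called (0.715% lower). It averaged 47.2 ± 14.7 CPM with anti-IFN-gamma and 95.9 ± 5.05 CPM with IgG (SD, n = 3 each), and fell by 1.02 ± 0.18 on the log2 scale (edgeR adjusted p = 0.00776). Tnnc1 stood at -0.81 ± 0.21 (edgeR adjusted p = 0.0891) and Tnnt1 at -0.62 ± 0.25 (edgeR adjusted p = 0.37). The fast genes had estimates of 0.07 for Tnni2, 0.09 for Tnnt3 and 0.02 for Tnnc2 and edgeR adjusted p of 0.778, 0.656 and 0.973. With Tnnt3, 4 of 6 members did not overlap between the groups, as for 15.2% of all genes. Tnni1 missed the threshold without anti-IFN-gamma replicate 2 (edgeR adjusted p = 0.0646), and without anti-IFN-gamma replicate 1 it stood at -0.80 (edgeR adjusted p = 0.0121).

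The balance was -7.21 to -6.04 with anti-IFN-gamma and -5.58 to -5.48 with IgG, a difference of -0.97 (exact permutation, two-sided p = 0.1, the smallest that 3 against 3 allows). Without anti-IFN-gamma replicate 1 it was -0.61. Myh7 was also lower, at 64.7, 148 and 177 CPM with anti-IFN-gamma and 275, 322 and 286 CPM with IgG (log2 -1.18 ± 0.24 SE, edgeR adjusted p = 0.0264). It was the only 1 of 10 slow fibre genes called, while 9 of the 10 estimates were below 0, with a median of -0.38 beside 0.00 over all genes. None of 12 fast fibre genes was called (median 0.03). The summed CPM of 5 macrophage markers was 77.4 to 125.1 with anti-IFN-gamma and 125.4 to 158 with IgG, that of T and NK cell markers 4.03 to 5.42 and 5.48 to 10.4 in the same order, and their part in the result was not tested.

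In the aged mice the members varied severalfold within a group. Tnni1 was at 124 and 11.7 CPM with anti-IFN-gamma and at 17.7 and 50.5 CPM with IgG. Tnnt3 was at 37024 and 5531 CPM with anti-IFN-gamma and at 12990 and 34885 CPM with IgG. The groups overlapped in every member, and anti-IFN-gamma replicate 3 was lowest in all 6.

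No member and none of the 12531 genes passed (0% called, 0 members at an unadjusted p under 0.05 and 0 members by DESeq2). Estimates for the slow genes were log2 1.26 ± 1.40 SE for Tnni1, 0.83 ± 1.13 for Tnnt1 and 1.62 ± 1.30 for Tnnc1, each with an edgeR adjusted p of 1. The ratio within a library was less spread, with a balance of -6.31 and -6.07 with anti-IFN-gamma and -7.67 and -7.36 with IgG, a difference of 1.33 (exact permutation, two-sided p = 0.333, the smallest that 2 against 2 allows). Its sign was opposite to that in trained DTR+ mice, but the designs share no group and the difference between them was not tested. The muscle of the aged libraries was not named, and muscles differed in balance by 3.66 above.

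Ordered by mean balance, most of the 22 groups overlapped with their neighbours. Trained DTR+ mice with IgG stood highest at -5.53, followed by wild-type quadriceps on day 7 at -5.89 and trained DTR- mice at -5.91. Sedentary quadriceps stood at -6.26 in wild-type mice, at -6.25 in DTR- mice of the training experiment and at -6.85 in DTR- mice of the acute experiment. The aged IgG group (-7.51) was the lowest outside tibialis anterior, whose 4 groups lay from -9.72 to -10.30. Of 21 neighbouring pairs in this order, 19 overlapped in their libraries. The 2 that did not were acute sedentary DTR+ (-7.03) with aged IgG, and aged IgG with tibialis anterior on day 1, a gap of 2.21.

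**Figure D4:**
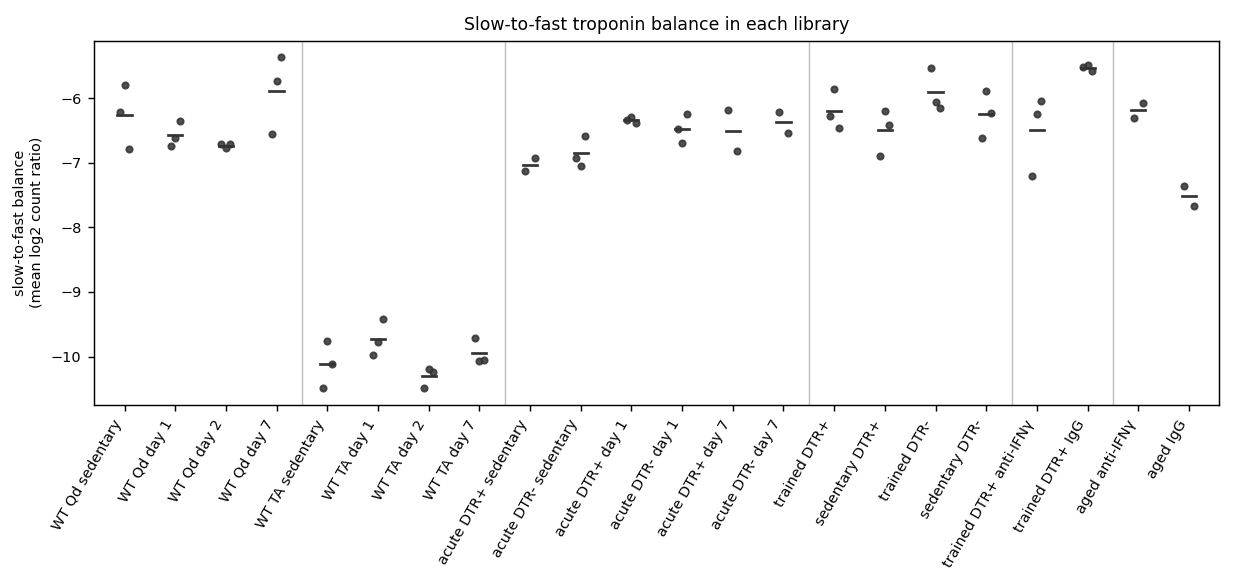
Slow-to-fast troponin balance, the mean log2 ratio of slow to fast counts over 3 subunits, in every library by group, with bars at group means. Tibialis anterior groups lie near -10, all other groups between -5.53 and -7.51, and the 3 anti-IFN-gamma libraries of trained DTR+ mice lie below the 3 with IgG.

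The balance was then set beside the myosin balance, the log2 ratio of Myh7 to Myh4 counts, within each of 5 experiments. In wild-type quadriceps the 2 rose together over 12 libraries (Pearson r = 0.815, permutation p = 0.0016, adjusted 0.00267; Spearman rho = 0.650), and r was 0.609 without the 2 libraries farthest from the median. In the acute experiment r was 0.768 over 15 libraries (permutation p = 0.00135, adjusted 0.00267; rho 0.657; 0.735 without 2 libraries), and in the training experiment 0.881 over 12 (permutation p = 0.00024, adjusted 0.0012; rho 0.804; 0.804 without 2 libraries). Within groups, as deviations from group means, r was 0.888, 0.807 and 0.938 in the same order. In tibialis anterior r was 0.0084 (permutation p = 0.976) and rho was -0.196 (permutation p = 0.542). There both balances rest on few slow counts, and 1 library had no Myh7 count. The trained antibody libraries formed separate clusters by treatment, so no r over both treatments is given, and as deviations from group means r was 0.968 over the 6 libraries, 3 of each treatment. The troponin balance spanned -5.58 to -5.48 with IgG and -7.21 to -6.04 with anti-IFN-gamma, so this r rests mainly on the anti-IFN-gamma libraries. The r without anti-IFN-gamma replicate 1 was not computed.

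**Figure D5:**
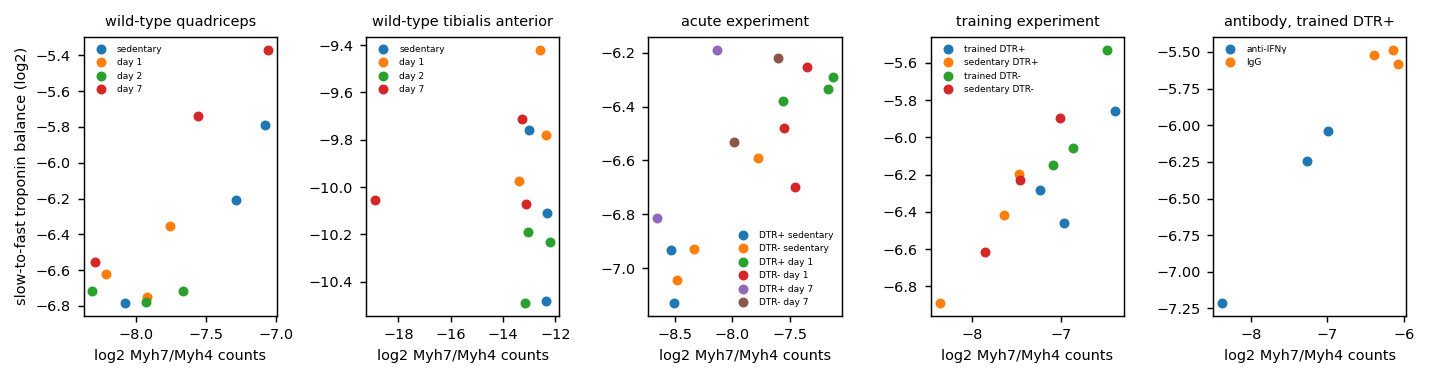
Troponin balance against myosin balance, both log2 ratios of slow to fast counts, 1 point per library in each experiment. Libraries with a higher myosin balance have a higher troponin balance in wild-type quadriceps (r = 0.815), the acute experiment (0.768) and the training experiment (0.881), and not in tibialis anterior.

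Among themselves, the slow genes followed each other in wild-type quadriceps. As deviations from group means over the 12 wild-type quadriceps libraries, Pearson's r was 0.93 for Tnni1 with Tnnc1, 0.89 for Tnni1 with Tnnt1 and 0.87 for Tnnt1 with Tnnc1, and 0.98 for Tnni2 with Tnnt3. In tibialis anterior the slow pairs lay between -0.28 and 0.12. In the acute experiment r was 0.53 for Tnni1 with Tnnt1, 0.51 for Tnni1 with Tnnc1 and -0.07 for Tnnt1 with Tnnc1, and Tnnt3 and Tnnc2 kept together (0.92) while Tnni2 did not follow either (-0.28 with Tnnt3 and -0.52 with Tnnc2). The 2 DTR- day 7 libraries lay far apart in Tnni2, at 10618 CPM in replicate 1 and 4860 CPM in replicate 3. The values of r without replicate 1 were not computed. These are descriptions over libraries that share depth and scaling.

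The genes most like each member were named by the correlation of deviations from group means, over 8882 genes. Since the aged libraries varied so widely, the values without them (57 libraries, chosen after seeing the data) are given first. Tnni1 was most like Tpm3 (0.58), Myh7 (0.57) and Vac14 (0.55), Tnnt1 like Tceal7 (0.64), Tpm3 (0.60) and Sln (0.58), and Tnnc1 like Tpm3 (0.88), Myl3 (0.71) and Atp2a2 (0.71). Tpm3 was thus among the 3 nearest of every slow gene over the 57 libraries, but not evenly within experiments. Its r with Tnni1 ranged from -0.71 in tibialis anterior to 0.96 in the training experiment. With Tnnt1 it ranged from 0.06 in the acute experiment to 0.92 in the trained antibody libraries, and with Tnnc1 from 0.51 in tibialis anterior to 0.97 in the training experiment. Tnni2 was most like the calcium buffer gene Pvalb (0.82) and like Rplp1 (0.79), Tnnt3 like Ndufb11 (0.94), Park7 (0.93) and Ndufa13 (0.93), and Tnnc2 like Park7 (0.94), Ndufa13 (0.92) and Selenow (0.92). Some of these pairs were uneven too. From the trained antibody to the acute libraries, r was -0.56 to 0.97 for Tnnc2 with Ndufa13 and -0.20 to 0.88 for Tnni2 with Pvalb. For Tnnt1 with Tceal7 it was 0.03 in the training experiment and 0.90 in wild-type quadriceps. Tnnc2 with Park7 lay between 0.60 and 0.98 in every experiment.

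With all 61 libraries the values were higher and the names changed for most members. Here too some pairs were uneven within experiments, with r for Tnni1 and Mrps11 from -0.24 in the acute to 0.82 in the training experiment. Tnni1 was nearest to Mrps11 (0.81), Mrpl46 (0.81) and Higd1a (0.80), Tnnt1 to Tpm3 (0.79), Tceal7 (0.78) and Mb (0.75), and Tnnc1 to Tpm3 (0.94), Myl3 (0.87) and Cox8a (0.86). Tnni2 was nearest to Rpl7a (0.97), Rps18 (0.97) and Atp5g3 (0.96), Tnnt3 to Acta1 (0.99), Park7 (0.99) and Mdh2 (0.98), and Tnnc2 to Ndufa13 (0.99), Cisd1 (0.99) and Cystm1 (0.99).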

How the data were processed

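Whole muscle was lysed in TRIzol, and 2 ng of RNA per sample went into ultra-low-input RNA-seq, per the labels' protocols. The deposited table holds raw read counts per gene, made by the authors with STAR 2.7.3a and featureCounts on mm10, per the submitters' processing notes. Which annotation and strand setting the counting used is not stated in any source at hand. CPM were computed from these counts and the library totals, and CPM per kilobase with exon lengths of GENCODE gene models for GRCm38 (53009 of 55011 symbols matched).

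The counts of an experiment went into a fit of their own in edgeR (version 4.0.16, under R 4.3.3; TMM factors, its default filter on low counts, quasi-likelihood test, Benjamini-Hochberg adjustment over all tested genes, threshold 0.05). The script was tested on simulated counts. Balances were tested by exact permutation over libraries with numpy 2.4.6, and correlations by 100000-resample permutation, with Spearman's rho from scipy 1.17.1. The rule for named genes took all 6 members in every comparison, the 3 genes most like each (1 of them is not reported here) and, of each fixed list, up to 6 genes called. The text gives values for the members a result turns on and examples from the lists. The members and lists were chosen with earlier results of these data known. The labels do not say that all replicates came from separate animals, so p-values measure only the spread between these samples; replicate pairs differed by more than sampling noise.

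Same-numbered wild-type libraries are 2 muscles of 1 animal, per the labels, although their deviations from group means correlated at only -0.033 to 0.053 over 12 pairs. Alternatives were DESeq2 1.42.0, its size factors within edgeR, no filter, fits of 2 groups, library totals, a replicate block, a length and GC correction, and each library left out.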

Additional observations from a re-analysis of the deposited data

Results flagged for a closer look

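One result was marked because 2 groups differed in their response to the same contrast, by a test of the difference itself. The change of Tnnc2, the fast troponin C gene, on day 1 after exercise differed between the genotypes by log2 -0.79 ± 0.20 SE, DTR+ minus DTR- (interaction contrast, edgeR adjusted p = 0.00921). The same contrast called 15.4% of all genes, so a call in 1 of the 6 members is close to the share of all genes. Day 1 against sedentary was log2 -1.74 in DTR+ mice and -0.95 in DTR- mice. The value was -0.51 with library totals (edgeR adjusted p = 0.0448), -0.71 without DTR+ sedentary replicate 2 (edgeR adjusted p = 0.0628) and -0.37 with the trends on gene length and GC content removed (edgeR adjusted p = 0.282). On day 1 itself no gene was called between the genotypes, and the sedentary groups differed in mitochondrial share, at 21.4% to 23.5% in DTR+ and 7.89% to 11.996% in DTR- libraries, whose part in the result was not tested.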

How the results depend on the processing

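Counts of troponin genes called are given here for the settings that moved them. Without a filter on low counts they were 1, 2 and 1 for quadriceps on days 1, 2 and 7 (0 as reported), 5 for sedentary quadriceps against tibialis anterior (3), 4 for DTR- day 1 (2), 2 for DTR- day 7 (0), 3 for anti-IFN-gamma in trained mice (1), 3 for the day 1 response by genotype (1) and 1 for the day 7 response (0). With length and GC trends removed they were 5 for the sedentary muscles, 2 for sedentary DTR+ against DTR- (4), 4 for DTR- day 1, 1 for trained DTR+ (0) and 0 for the day 1 response. With the replicate block as well they were 5, 2, 4 and 0 for the sedentary muscles, sedentary genotypes, DTR- day 1 and day 1 response, and 0 for day 7 by genotype (3). DESeq2 gave 1 for DTR- day 7, 2 for anti-IFN-gamma and 2 for the day 1 response, and its size factors within edgeR gave 2 for the day 1 response. A fit of 2 groups gave 5 for DTR+ day 1 (3). Library totals gave 5 for the sedentary muscles, 1 for sedentary genotypes and 4 for DTR- day 1, and turned Tnni1 on DTR+ day 1 to log2 0.018. The other 169 counts stayed within 1.5 times. Calls over all genes also rose without a filter for the sedentary muscles and anti-IFN-gamma, as given in the last paragraph. A higher member count under a setting therefore does not by itself single out the troponin genes. Here and below, where calls over all genes are not given for a setting, its member counts cannot be set against them.

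The troponin I pair alone turned the balance of acute exercise to -0.16, of acute genotype to 0.059 and of quadriceps exercise to 0.11, and moved the aged difference to 1.71. The troponin T pair alone turned acute genotype to 0.061 and tibialis anterior exercise to -0.43, moved the aged difference to 0.71 and brought training to 0.60 (exact permutation p = 0.03). The other 51 balance values were rated as unchanged. For anti-IFN-gamma in trained and in aged mice no p under 0.05 was possible. There, unchanged means only a shift of less than 0.326, the pooled SD within groups.

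Leaving out each library in turn, counts ranged from 2 to 4 for sedentary genotypes and DTR- day 1, 0 to 2 for DTR- day 7, anti-IFN-gamma and the day 1 response, and 0 to 1 for the day 7 response. The balance ranged from -0.40 to 0.10 for quadriceps exercise (0.10 without sedentary animal 6), -0.057 to 0.30 for tibialis anterior (-0.057 without sedentary animal 5), -0.16 to 0.051 for acute genotype (0.051 without DTR+ day 7 replicate 3) and -1.20 to -0.61 for anti-IFN-gamma. DTR- day 1 reached 4 without its replicate 1, DTR- day 7 reached 2 and the day 7 response 1 without DTR- day 7 replicate 3, anti-IFN-gamma reached 2 without anti-IFN-gamma or IgG replicate 3, and the day 1 response reached 2 without DTR- sedentary replicate 1.

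The replicate block gave 4 called genes for the sedentary muscles, 4, 3, 2, 3 and 1 for sedentary, day 7, DTR- day 1, DTR+ day 1 and the day 1 response in the acute experiment, and 1 for anti-IFN-gamma (Tnni1 at -1.06, edgeR adjusted p = 0.0249), and changed no other call. Outside the wild-type mice the libraries share only a number: same-numbered deviations correlated at -0.098 to 0.042 in the acute, -0.156 to 0.1 in the training and -0.047 to 0.013 in the antibody libraries. They correlated at -0.652 in the aged ones, where crossed pairs (chosen after seeing the data) called 0 members. Paired sign flips of the balance gave p = 0.000488 for the muscles, 0.0938 and 0.188 for genotype and training, 0.25 for anti-IFN-gamma in trained and 0.5 in aged mice, all exact. Over all genes, calls were 180 for the sedentary muscles, 298 by DESeq2 and 302 without a filter, and 158 for anti-IFN-gamma, 375 without a filter. They were 2188 for the day 1 response and 1126 with block, length and GC. Tibialis anterior is limited by slow counts of few reads, and aged mice by 2 libraries a group.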
